A study of Danio rerio with 4 samples.

Results

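The hox genes of the zebrafish (Danio rerio) were followed in polysomal and total mRNA of embryos injected with a morpholino against eif3ha and of wild-type embryos. They were taken as every gene of the deposited tables whose Ensembl symbol is hox followed by a cluster letter from a to d and a paralogue number, with or without a copy letter. This gave 38 of 32313 genes, of which 5 lie in Hox A, 15 in Hox B, 11 in Hox C and 7 in Hox D by their symbols. By paralogue number, 11 were anterior (1 to 4), 10 middle (5 to 8) and 17 posterior (9 to 13). The 4 libraries were eif3ha morphant polysomal, wild-type polysomal, eif3ha morphant total and wild-type total mRNA, all from whole embryos at about 24 hours after fertilization. Per the labels, 300 embryos went into a polysomal sample and 50 into a total one. Each group is 1 library made from pooled embryos, so the differences below have no replicate check, and no test between the groups can be made. The labels name no control morpholino, so an effect of injection and an effect of losing eIF3h cannot be told apart.

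Hox genes encode homeodomain transcription factors that give cells of the main body axis their position. Within a cluster, genes with low paralogue numbers act in the hindbrain and neck region and come on early, and genes with high numbers act in the trunk, tail and appendages and come on later. Teleost fish carry extra copies of these clusters, marked a and b. A polysome is an mRNA that carries several ribosomes, so the polysomal fraction samples the mRNA under translation. eIF3h is a subunit of eIF3, the complex that helps to bring the small ribosomal subunit to an mRNA, and eif3ha encodes a zebrafish copy of it. A morpholino is an injected antisense oligo that blocks translation or splicing of its target.

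The values are RPKM, reads per kilobase of gene model corrected for the number of mapped reads, as deposited. Depth recovered from the steps between low values was 22001385 mapped reads in morphant polysomal and 15769472 in wild-type polysomal mRNA, and 21021425 in morphant total and 24939991 in wild-type total mRNA. The 50 most abundant genes took 38.8% of the summed RPKM in the morphant polysomal library against 43.7% in the wild-type polysomal library, and 24.1% against 24.2% in total mRNA. The gene with the symbol EIF3H (ENSDARG00000036116) had 7.60 RPKM in morphant polysomal and 6.33 RPKM in wild-type polysomal mRNA, and 5.92 RPKM in morphant total and 6.24 RPKM in wild-type total mRNA. The symbol does not say whether it is the a copy, and a morpholino need not lower its target's mRNA, so these values do not check the labels. Markers of several tissues were present, among them MYOD1 of muscle at 43.5 RPKM in morphant polysomal and 35.0 RPKM in wild-type polysomal mRNA. Markers of other tissues differed between morphants and wild type. In total mRNA all 4 neuron markers and all 3 eye markers were lower in morphants, with median log2 ratios of -0.46 and -0.67. Of all genes that reached 3 RPKM in either total library, 52.4% were lower. On polysomes all 3 hatching gland markers were at least 2-fold higher in morphants, beside 1.76% of all genes that reached 3 RPKM in either polysomal library. Their median was 1.18 on polysomes, 0.98 in total mRNA and 0.20 in association, the polysomal less the total log2 ratio. All 3 epidermis markers were lower on polysomes, beside 51.1% of all genes above that floor. Their medians were -0.34 on polysomes, 0.53 in total mRNA and -0.79 in association. None of the notochord markers listed had a matching symbol.

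All 38 hox genes were detected in all 4 libraries, at low to moderate levels. Their median was 8.28 RPKM in morphant polysomal and 7.23 RPKM in wild-type polysomal mRNA, and 8.67 RPKM in morphant total and 9.91 RPKM in wild-type total mRNA. Each member lay above the median gene of every library. Reads per member ran from 56 to 1299 in morphant polysomal and from 7 to 998 in wild-type polysomal mRNA, and from 53 to 1976 in morphant total and from 83 to 2720 in wild-type total mRNA. HOXB13, HOXC5, HOXC11 and hoxa13b stayed below 3 RPKM in all 4 libraries. In bulk libraries of whole embryos, fewer cells of a type and less RNA per cell cannot be told apart.

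Some symbols do not settle which gene copy was counted. Of the 38 members, 26 carry capital-letter symbols, and for 9 of these the RefSeq annotation of the assembly GRCz12tu lists both an a and a b copy, HOXC12 and HOXC13 among them. For HOXB6 and HOXB8, also among the 9, the b copy is a separate member, hoxb6b and hoxb8b. HOXB5 is the symbol of 2 genes, given here with their identifiers. The RefSeq annotation lists 49 protein-coding hox genes. Some of them, such as hoxa1a, hoxa3a, hoxa4a and hoxa5a, are not among the members. Only 20499 of 32313 genes have a symbol, so the members need not be the full set, in Hox A above all. In the same annotation, 15 members overlap another hox gene, as the models of hoxb3a, hoxc3a and hoxb1b each span several neighbours and those of hoxd3a and hoxd4a overlap each other. Whether counting used strand is not given in the sources used here, so reads of such neighbours may be shared and their values are uncertain.

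**Figure D1:**
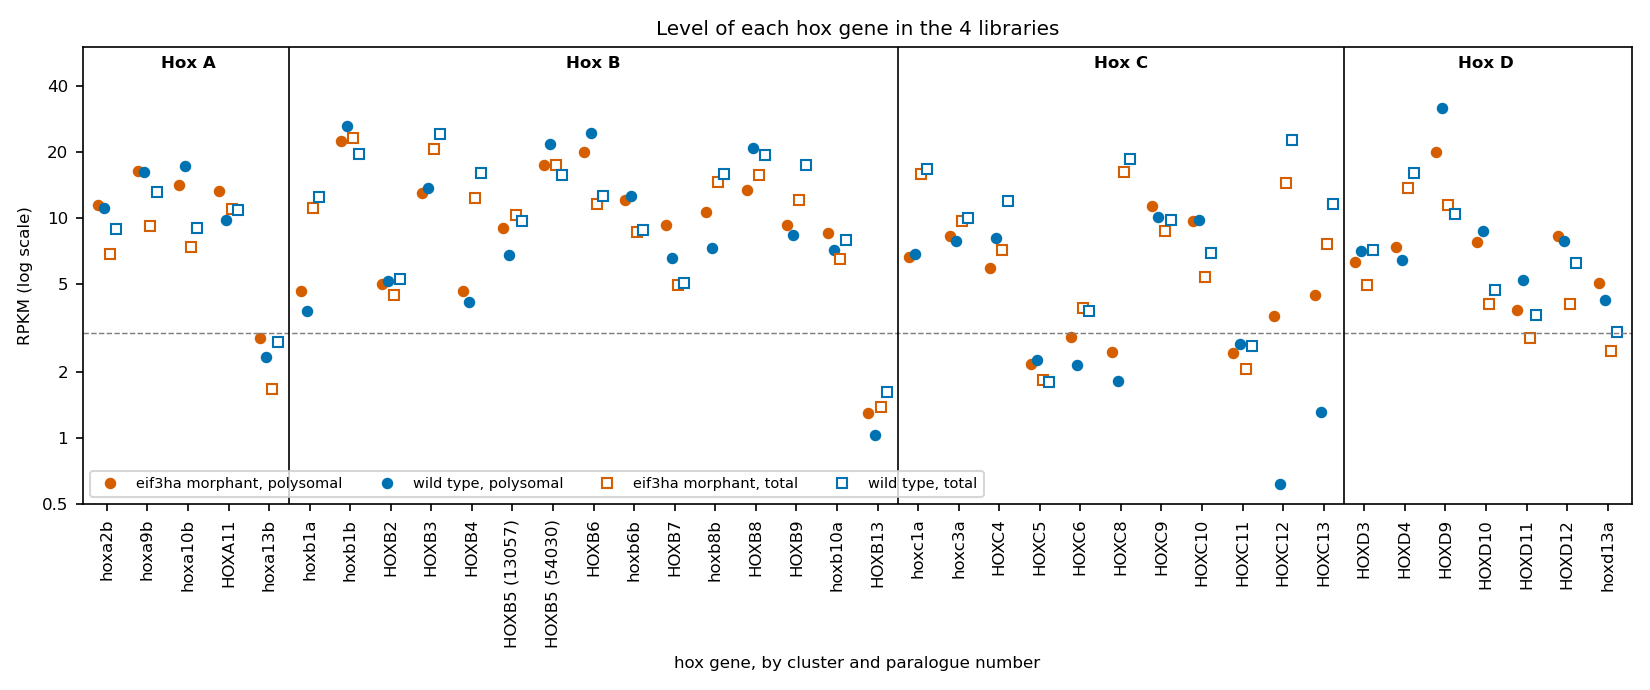
Level of each of the 38 hox genes in RPKM (log axis), ordered by cluster and paralogue number, with filled circles for polysomal and open squares for total mRNA, morphant in orange and wild type in blue; the dashed line marks 3 RPKM. HOXC12 has the widest spread, from 0.615 RPKM in wild-type polysomal to 22.6 RPKM in wild-type total mRNA.

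In total mRNA the median level fell from anterior over middle to posterior genes. It was 11.08, 10.98 and 6.49 RPKM in morphants and 12.4, 11.2 and 7.96 RPKM in wild type. The polysomal medians did not fall in that order, at 6.65, 9.96 and 8.25 RPKM in morphants and 7.12, 7.07 and 7.85 RPKM in wild type. Among anterior genes hoxb1b, which acts early in hindbrain segmentation, had the highest mean over the 4 libraries, with 22.5 RPKM in morphant polysomal and 26.4 RPKM in wild-type polysomal mRNA, and 23.1 RPKM in morphant total and 19.6 RPKM in wild-type total mRNA. HOXB3 had 13.01 RPKM in morphant polysomal and 13.7 RPKM in wild-type polysomal mRNA, and 20.7 RPKM in morphant total and 24.0 RPKM in wild-type total mRNA. hoxb1b was lower in morphants on polysomes and higher in total mRNA, and HOXB3 was close on polysomes and lower in morphant total mRNA. hoxc1a had 6.65 RPKM in morphant polysomal and 6.84 RPKM in wild-type polysomal mRNA, and 15.9 RPKM in morphant total and 16.7 RPKM in wild-type total mRNA. Its levels in morphants and wild type were close in both fractions.

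Among middle genes, HOXB5 (ENSDARG00000054030), HOXB6 and HOXB8 had the highest means. HOXB6 had 20.04 RPKM in morphant polysomal and 24.3 RPKM in wild-type polysomal mRNA, and 11.6 RPKM in morphant total and 12.6 RPKM in wild-type total mRNA. HOXB5 (ENSDARG00000054030) had 17.5 RPKM in morphant polysomal and 21.6 RPKM in wild-type polysomal mRNA, and 17.5 RPKM in morphant total and 15.7 RPKM in wild-type total mRNA. Both genes were lower in morphant polysomal than in wild-type polysomal mRNA. Among posterior genes, HOXD9, hoxa9b and hoxa10b had the highest means. hoxa9b had 16.3 RPKM in morphant polysomal and 16.3 RPKM in wild-type polysomal mRNA, and 9.23 RPKM in morphant total and 13.1 RPKM in wild-type total mRNA. hoxa10b had 14.2 RPKM in morphant polysomal and 17.2 RPKM in wild-type polysomal mRNA, and 7.39 RPKM in morphant total and 8.97 RPKM in wild-type total mRNA. Both of these genes, from the group used in posterior trunk and appendages, were lower in morphant than in wild-type total mRNA.

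In polysomal mRNA, the hox genes as a group had about the same level in morphants and wild type, and 2 genes at the posterior end of Hox C stood far above the rest. With 0.5 RPKM added to both values, the ratio of morphant to wild type was put on the log2 scale for genes that reached 3 RPKM in either library. The median log2 ratio was 0.03 over the 32 hox genes above this floor, against -0.01 over 8261 genes, with 17 members above 0 and 15 below, beside 48.9% and 51.1% of all genes. By position it was -0.04 for 11 anterior, -0.07 for 7 middle and 0.11 for 14 posterior genes. Over all members, at a mean of at least 1 RPKM over the 4 libraries, it was -0.04, 0.15 and 0.14, so the middle sign rests on the floor. Past 2-fold, HOXC12 and HOXC13 were higher in morphants and no member was lower, beside 1.76% and 4.12% of all genes above the floor. HOXC12 and HOXC13 passed the floor through the morphant polysomal library alone, so a difference in that direction was built into their passing.

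HOXC12 (ENSDARG00000070352), from the late, tail-forming end of its cluster, had 3.58 RPKM in morphant polysomal and 0.615 RPKM in wild-type polysomal mRNA, resting on 64 and 7 reads. In total mRNA it had 14.4 RPKM in morphants and 22.6 RPKM in wild type, from 249 and 464 reads. The gene was thus higher in morphants on polysomes and lower in morphants in total mRNA. Per mapped read the polysomal ratio was 6.55-fold, or 2.71 on the log2 scale with a 95% counting interval of 1.59 to 4.08, and with 0.5 RPKM added it was 1.87. The total log2 ratio was -0.63.

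HOXC13 (ENSDARG00000070353), whose mouse counterpart acts in hair and nail, had 4.46 RPKM in morphant polysomal and 1.31 RPKM in wild-type polysomal mRNA, from 56 and 11 reads. In total mRNA it had 7.61 RPKM in morphants and 11.6 RPKM in wild type, from 92 and 167 reads. It repeated the order of HOXC12 in both fractions. Its polysomal ratio was 3.65-fold per mapped read, or 1.87 in log2 with a counting interval of 0.92 to 2.95, and 1.45 with 0.5 RPKM added. The gene models behind these values were short, at 581 bases for HOXC13 and 825 for HOXC12, in a family that ran from 581 to 6020 bases.

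The next highest polysomal ratios were those of hoxb8b at 0.51, HOXB7 at 0.46 and HOXA11 at 0.42. hoxb8b, a trunk gene by its paralogue group, had 10.6 RPKM in morphant polysomal and 7.33 RPKM in wild-type polysomal mRNA, and 14.6 RPKM in morphant total and 15.8 RPKM in wild-type total mRNA. It was higher in morphants on polysomes and slightly lower in total mRNA. The lowest were HOXD9 at -0.66, HOXB8 at -0.61 and HOXC4 at -0.41.

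HOXD9, a paralogue of a group that acts in the lower trunk and paired appendages in mouse, had 19.9 RPKM in morphant polysomal and 31.8 RPKM in wild-type polysomal mRNA, and 11.4 RPKM in morphant total and 10.4 RPKM in wild-type total mRNA. Its morphant polysomal level was the lower one although its total levels were close. HOXB8 had 13.4 RPKM in morphant polysomal and 20.8 RPKM in wild-type polysomal mRNA, and 15.8 RPKM in morphant total and 19.5 RPKM in wild-type total mRNA, so it was lower in morphants in both fractions. HOXC4 had 5.95 RPKM in morphant polysomal and 8.08 RPKM in wild-type polysomal mRNA, and 7.13 RPKM in morphant total and 11.9 RPKM in wild-type total mRNA, again lower in morphants in both.

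Counting intervals left out 0 on the upper side for 8 of the 32 members and on the lower side for 8, where 32.5% and 32.8% of all genes above the floor with recovered reads did so. Polysomal libraries spread more than counting alone: among genes with 4 reads over the pair, 22.0% (95% interval 18.7 to 25.5) were split evenly where the depths give 35.5%, so these intervals are too narrow. With the 50 most abundant genes left out of the totals, the hox polysomal median was 0.25 and that of all genes 0.21, so the direction of small polysomal ratios depends on the scaling, as for hoxb1b, at -0.22 as deposited and 0.01 under it.

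**Figure D2:**
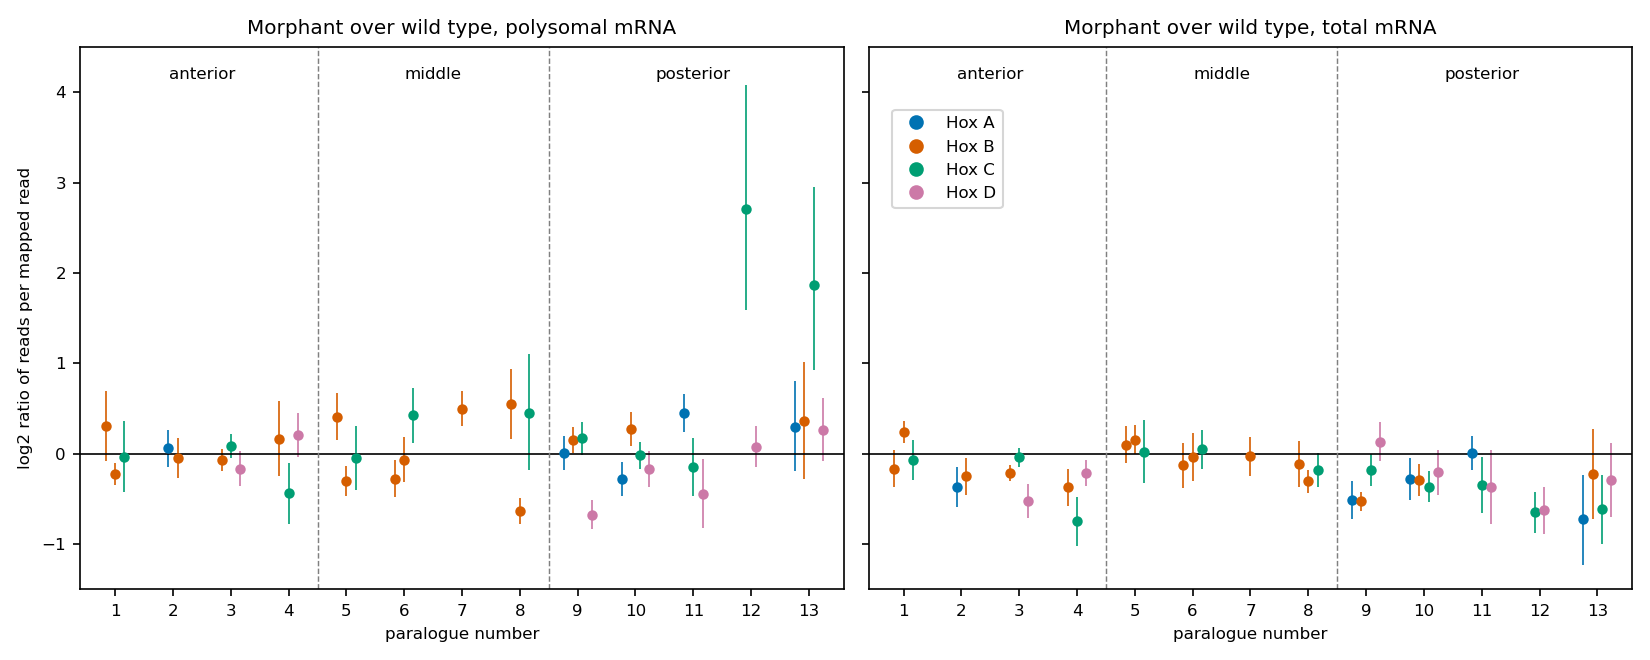
Log2 ratio of reads per mapped read, morphant over wild type, of each hox gene by paralogue number in polysomal (left) and total mRNA (right), colored by cluster, with 95% counting intervals as bars. HOXC12 and HOXC13 are the 2 high points on the left at 2.71 and 1.87, and on the right 31 of the 38 points lie below 0.

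In total mRNA most hox genes were somewhat lower in morphants. The median log2 ratio was -0.21 over the 34 members with at least 3 RPKM in either total library, against -0.02 over 12154 genes. Of the 34, 28 lay below 0, where 52.4% of all genes did. No member was at least 2-fold higher or lower, against 1.43% and 0.675% of all genes. Counting intervals lay wholly below 0 for 17 members and wholly above 0 for 1, hoxb1b, where 30.9% and 27.7% of all genes with recovered reads did so. Since a floor in either library can favour a direction, the members were also counted over all genes with a mean of at least 1 RPKM over the 4 libraries. All 38 hox genes met that floor, and 31 of them lay below 0, against 50.7% of 15038 genes.

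By medians and by summed reads, the total ratio was lower at both ends of the clusters than in the middle. Over the genes above 3 RPKM, 10 of 11 anterior, 6 of 9 middle and 12 of 14 posterior genes lay below 0, with medians of -0.21, -0.03 and -0.29. Reads summed over all members of a group gave -0.16 (95% counting interval -0.21 to -0.12) for anterior, -0.08 (-0.14 to -0.02) for middle and -0.36 (-0.41 to -0.31) for posterior genes. The anterior and middle intervals overlap. The middle group holds Hox B and Hox C genes only, so position and cluster were not separated. The lowest members were HOXC4 at -0.71, HOXC12 at -0.63 and HOXC13 at -0.58. The highest were hoxb1b at 0.23, HOXB5 (ENSDARG00000054030) at 0.15 and HOXD9 at 0.13. By cluster the medians were -0.31 in Hox A, -0.14 in Hox B, -0.18 in Hox C and -0.24 in Hox D.

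Polysome association, the log2 ratio on polysomes less that in total mRNA, was above 0 for most hox genes. It was taken for genes that reached 3 RPKM in either polysomal library and in each of the total libraries. Over 30 such members the median was 0.32, against 0.00 over 7546 genes, and 23 lay above 0, where 49.5% of all genes did. Over all 38 members, at a mean of at least 1 RPKM, 29 lay above 0, against 51.8% of 15038 genes. Counting intervals lay wholly above 0 for 16 of the 30 members and wholly below 0 for 4, where 28.3% and 27.4% of all genes did so. Most members had a lower total level in morphants and a polysomal ratio near 0. The association shares its polysomal and total values with the ratios above and is not a further measurement.

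HOXC12 had an association of 2.503, rank 1 of the 7546 genes, and HOXC13 had 2.03, rank 3. Both passed that floor through the morphant polysomal library alone, and among 15038 genes with a mean of at least 1 RPKM they ranked 5 and 12. They were the only members at least 2-fold higher and none was at least 2-fold lower, beside 1.62% and 3.07% of all genes. On reads alone the association was 3.36 (95% counting interval 2.22 to 4.51) for HOXC12 and 2.48 (1.48 to 3.48) for HOXC13. Without these 2 genes the hox median was 0.31. HOXB9 followed at 0.66, with 9.28 RPKM in morphant polysomal and 8.35 RPKM in wild-type polysomal mRNA, and 12.1 RPKM in morphant total and 17.4 RPKM in wild-type total mRNA. It was lower in morphants in total mRNA and slightly higher on polysomes. HOXD12 had 0.63 and hoxb8b 0.62.

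The members below 0 were led by HOXD9 at -0.79, then hoxb1b at -0.45, HOXB5 (ENSDARG00000054030) at -0.45 and HOXB8 at -0.32. Each of these 4 had a counting interval wholly below 0, and each was among the 5 most abundant hox genes on wild-type polysomes. That level is a divisor in the association, so by construction a high value there lowers the association and a low one raises it. HOXC12 and HOXC13, the 2 highest in association, were at places 38 and 36 of the 38 members there. HOXB6, at place 3 there, had an association of -0.15 with an interval spanning 0. In RefSeq the model of hoxb1b overlaps those of hoxb5b and hoxb6b, and the symbol HOXB5 does not say which copy each gene is. hoxb6b had an association of -0.03. The part of shared reads in the values of hoxb1b and HOXB5 (ENSDARG00000054030) was not tested.

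**Figure D3:**
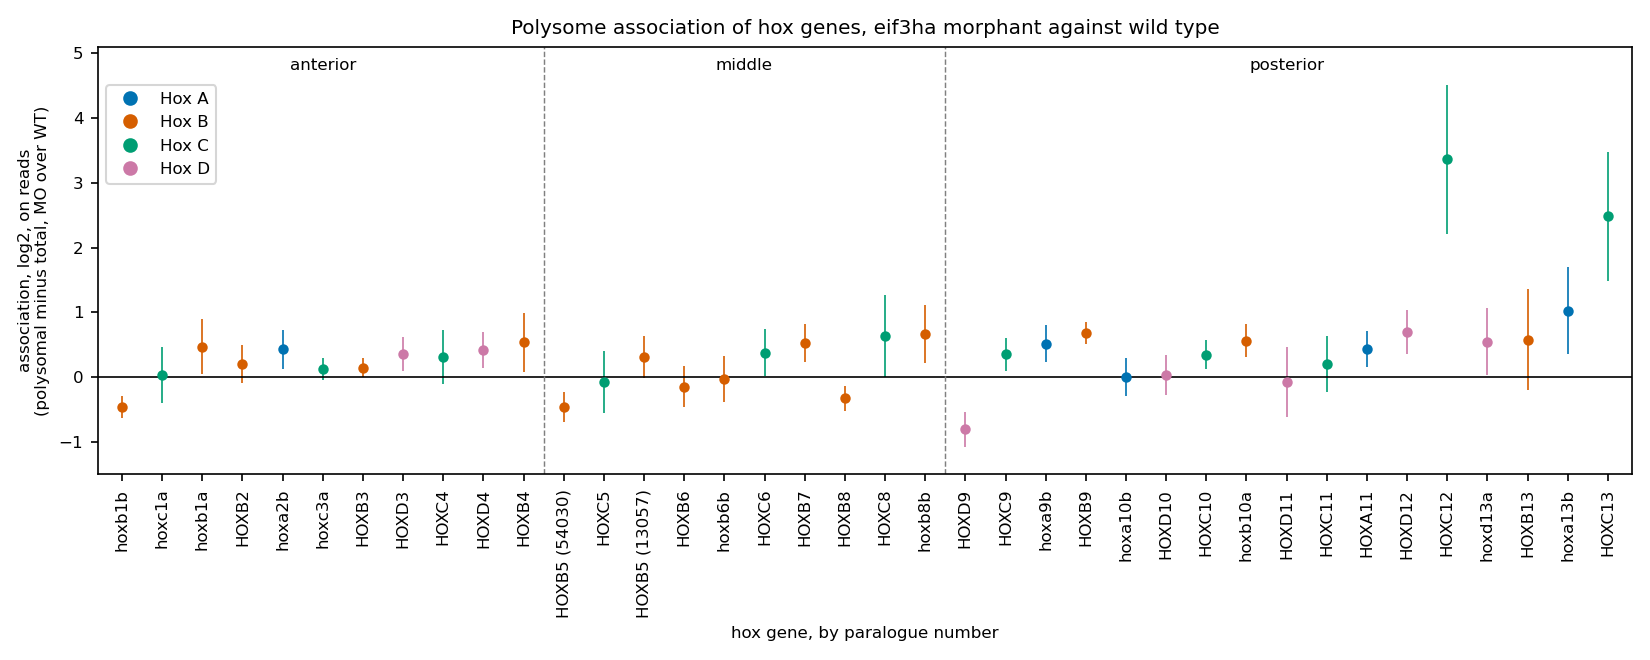
Polysome association on reads (log2; polysomal minus total ratio, morphant over wild type) of the 38 hox genes in order of paralogue number, colored by cluster, with 95% counting intervals as bars. HOXC12 at 3.36 and HOXC13 at 2.48 stand above the other members, and HOXD9 at -0.81 is the lowest.

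By position the association median was 0.29 for anterior, -0.03 for middle and 0.45 for posterior genes. Above 0 were 10 of 11, 3 of 7 and 10 of 12, beside 49.5% of all genes. Over all members, at a mean of at least 1 RPKM, the medians were 0.29, 0.13 and 0.41. There 10 of 11, 5 of 10 and 14 of 17 lay above 0, beside 51.8% of all genes. The sign of the middle median thus rests on the floor. Summed over all reads of a group, the association was 0.11 (95% counting interval 0.04 to 0.18) for anterior, -0.02 (-0.11 to 0.07) for middle and 0.36 (0.29 to 0.43) for posterior genes. The difference between position groups has no replicate behind it and was not tested. By cluster the association median was 0.41 in Hox A, 0.23 in Hox B, 0.32 in Hox C and 0.33 in Hox D. All 7 Hox C genes above the floor lay above 0, HOXC12 and HOXC13 among them, which passed it through the morphant polysomal library alone. Over all 11 Hox C members 10 lay above 0 and HOXC5 at -0.06, beside 51.8% of 15038 genes above 0.

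Paralogue groups 12 and 13 act in the tail and in the distal limb in mouse. Their 6 members here had the same order of values. All 6 were higher in morphant than in wild-type polysomal mRNA and lower in morphant than in wild-type total mRNA. RefSeq also lists hoxa13a, and both an a and a b copy of HOXC12 and HOXC13, so not every copy is among these members. Of 15038 genes with a mean of at least 1 RPKM, 8018 were higher on polysomes and 50.7% lower in total mRNA. The share of all genes with both was not counted. This order was not particular to groups 12 and 13: HOXB9, hoxb10a and hoxb8b, among other hox genes, had it too. Of all 38 hox genes, 21 were higher on polysomes and 31 lower in total mRNA. The association of the 6 genes of groups 12 and 13 ran from 0.40 to 2.503 with a median of 0.73. HOXD12 had 8.25 RPKM in morphant polysomal and 7.85 RPKM in wild-type polysomal mRNA, and 4.05 RPKM in morphant total and 6.24 RPKM in wild-type total mRNA. hoxa13b had 2.85 RPKM in morphant polysomal and 2.34 RPKM in wild-type polysomal mRNA, and 1.66 RPKM in morphant total and 2.72 RPKM in wild-type total mRNA. hoxd13a had 5.07 RPKM in morphant polysomal and 4.25 RPKM in wild-type polysomal mRNA, and 2.48 RPKM in morphant total and 3.02 RPKM in wild-type total mRNA. In these 3 genes the polysomal differences were small and their counting intervals spanned 0. For hoxd13a the total interval, -0.70 to 0.12, spanned 0 as well. HOXB13, a gene that limits tail length in mouse, had 1.30 RPKM in morphant polysomal and 1.03 RPKM in wild-type polysomal mRNA, and 1.39 RPKM in morphant total and 1.61 RPKM in wild-type total mRNA, with intervals spanning 0 in both fractions. For the 11 genes of groups 9 to 11 the association median was 0.32, with 8 above 0, beside 51.8% of 15038 genes. This split of the posterior genes was made after their values were seen and is a description.

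Within each condition, hox transcripts took a larger place on polysomes than the median gene. The median log2 ratio of polysomal over total mRNA was 0.08 in morphants over 34 members, against -0.70 over 11951 genes, and -0.02 in wild type over 34 members, against -0.71 over 12072 genes. In morphants 5 members were at least 2-fold lower on polysomes and none was 2-fold higher, beside 41.1% and 6.81% of all genes. In wild type 9 were lower by that much and 1, HOXD9 at 1.56, was higher, beside 42.7% and 10.5% of all genes. The level of this ratio depends on the scaling: under upper-quartile scaling the hox medians were 0.54 in morphants and 0.41 in wild type, where all genes moved up by 0.46 and 0.43.

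In wild type the 3 members lowest on polysomes relative to total mRNA were all in Hox C. Their gene models were also short, at 825 bases for HOXC12, 581 for HOXC13 and 1186 for HOXC8. The 9 members with models under 1300 bases ran from -4.37 to 0.92 in wild type, with a median of -1.23. The median of the 29 members with longer models was 0.04. The parts of cluster and model length were not tested. HOXC12 had a polysomal over total log2 ratio of -1.87 in morphants and -4.37 in wild type, and HOXC13 had -0.71 in morphants and -2.74 in wild type. HOXC8, which in mouse patterns the thoracic region, had 2.45 RPKM in morphant polysomal and 1.82 RPKM in wild-type polysomal mRNA, and 16.3 RPKM in morphant total and 18.5 RPKM in wild-type total mRNA. Its polysomal over total ratio was -2.51 in morphants and -3.03 in wild type. HOXC8 was thus low on polysomes in both conditions, while the low place of HOXC12 and HOXC13 was closer to that of other hox genes in morphants. Above the floor, 14 posterior genes had a median of 0.58 in morphants and 0.30 in wild type. The median of 9 middle genes was -0.19 in morphants and 0.09 in wild type, and that of 11 anterior genes -0.24 and -0.54. Over all members, at a mean of at least 1 RPKM, the posterior medians were 0.38 in morphants and 0.04 in wild type. The middle ones were -0.10 and 0.18, so the order of posterior and middle genes in wild type rests on the floor.

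**Figure D4:**
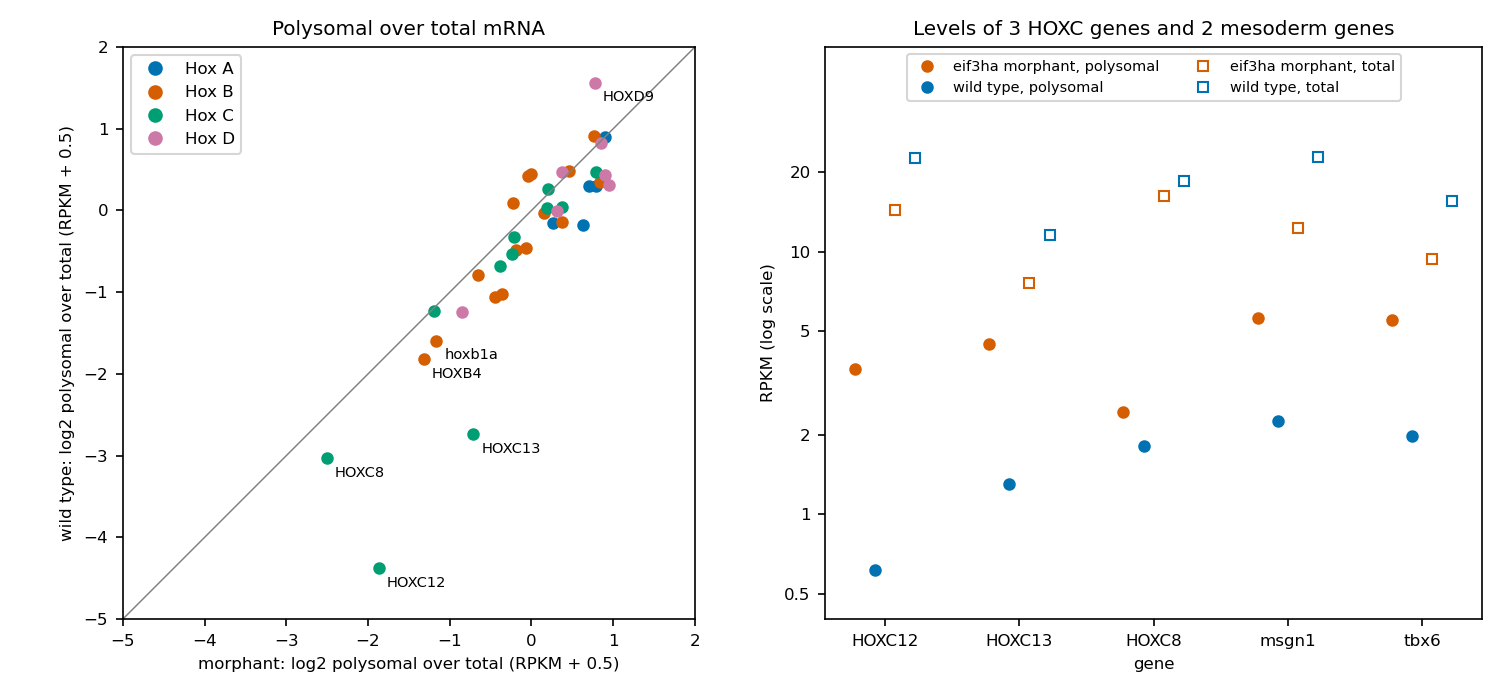
Left: log2 of polysomal over total mRNA (RPKM plus 0.5) in morphants (x) and wild type (y) for the 38 hox genes, colored by cluster, with the line of equality; HOXC12 lies at -1.87 and -4.37, far below the line, and HOXD9 above it at 0.77 and 1.56. Right: RPKM (log axis) of HOXC12, HOXC13, HOXC8, msgn1 and tbx6 in the 4 libraries, where all but HOXC8 have more than 2 times the wild-type level in morphant polysomal mRNA.

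Genes of the tissues that carry posterior hox transcripts were set beside the hox values. Of 17 posterior tissue markers in the tables, 6 were above the polysomal floor, with a median log2 ratio of 0.82 and all 6 above 0, beside 48.9% of all genes. Past 2-fold, 3 were higher in morphants, her7 at 1.35, tbx6 at 1.27 and msgn1 at 1.14, beside 1.76% of all genes. These 3 passed the floor through the morphant polysomal library alone. Over all 17 the polysomal ratio ran from -0.28 to 1.35 with a median of 0.30, and 14 were above 0 and 3 below. These 17 were taken without a floor, and the share of all genes on that basis was not counted. her7 belongs to the segmentation clock, and tbx6 and msgn1 encode transcription factors of presomitic mesoderm. In total mRNA 9 were above the floor, with a median of -0.49 and 6 below 0, beside 52.4% of all genes. tbx6 had 5.50 RPKM in morphant polysomal and 1.997 RPKM in wild-type polysomal mRNA, and 9.39 RPKM in morphant total and 15.6 RPKM in wild-type total mRNA. msgn1 had 5.60 RPKM in morphant polysomal and 2.28 RPKM in wild-type polysomal mRNA, and 12.3 RPKM in morphant total and 22.8 RPKM in wild-type total mRNA. Like HOXC12 and HOXC13, both were higher in morphants on polysomes and lower in total mRNA. Their association was 2.003 for msgn1 and 1.96 for tbx6, and over the 5 markers above that floor it ran from 0.26 to 2.003. The part of these tissues, and of the neuron, eye, hatching gland and epidermis differences, in the hox values was not tested.

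Other genes of the Hox network were taken by role. The TALE proteins of the Pbx, Meis and Prep families bind DNA together with Hox proteins. Of 11 in the tables, 6 were above the floor, with medians of -0.09 in polysomal mRNA, -0.04 in total mRNA and 0.02 in association. None of the 6 was 2-fold different. Of all genes, 1.76% were 2-fold higher and 4.12% lower in polysomal mRNA. These shares were 1.43% and 0.675% in total mRNA, and 1.62% and 3.07% in association. pbx4, the main Pbx gene of the early embryo, had 86.4 RPKM in morphant polysomal and 96.9 RPKM in wild-type polysomal mRNA, and 69.1 RPKM in morphant total and 73.7 RPKM in wild-type total mRNA. Its level was close between morphants and wild type in both fractions. Among chromatin regulators of hox genes, the Polycomb and Trithorax groups, the association median was 0.07 over 15 of 31 genes. kdm6al, a histone demethylase gene of this list, had 5.58 RPKM in morphant polysomal and 12.2 RPKM in wild-type polysomal mRNA, a log2 ratio of -1.06, and an association of -0.82.

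Of 34 upstream regulators of hox expression, 14 were above the floor for association, with a median of 0.32 and 11 above 0, beside 49.5% of all genes. mafbb, a hindbrain segmentation factor, was at least 2-fold higher at 1.098, beside 1.62% of all genes. CRABP1 (ENSDARG00000035904), which binds retinoic acid, was at least 2-fold lower at -1.47, beside 3.07% of all genes. cdx4, which activates posterior hox genes, had 10.4 RPKM in morphant polysomal and 8.30 RPKM in wild-type polysomal mRNA, and 6.87 RPKM in morphant total and 11.04 RPKM in wild-type total mRNA. Like the genes of groups 12 and 13 and other hox genes, it was higher in morphants on polysomes and lower in total mRNA. Its total log2 ratio of -0.65 was the lowest of the 23 upstream regulators above the total floor. Those 23 had a median of 0.01, with 12 above 0 and 11 below, beside 52.4% of all genes below 0.

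Homeobox genes outside the Hox clusters had values like those of the hox genes. Of 77 in the tables, 38 were above the association floor, with a median of 0.39 and 32 above 0, beside 49.5% of all genes. Their median was 0.17 over 41 genes in polysomal mRNA and -0.17 over 51 genes in total mRNA, where 38 lay below 0, beside 52.4% of all genes. EN2 (ENSDARG00000038868), a midbrain and hindbrain boundary gene, had the highest association among them at 1.69, and passed the floor through the morphant polysomal library alone. A median below 0 in total mRNA and above 0 in association was thus seen in both gene groups.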

How the data were processed

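The authors deposited RPKM values for each Ensembl gene in each of 4 libraries (polyA mRNA, single reads of 36 bases). Zv9 is the build per the submitters' processing notes. Which aligner, counter and annotation release the authors used is not given in the sources used here. Symbols came from a table of Ensembl identifiers (20499 of 32313 genes). RefSeq genes of GRCz12tu served for names and neighbours only, and no coordinates or sequences were used here.

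Within a library, low values are whole multiples of a step, as reads plus 1 would give. Reads, depth and gene-model length were solved from these steps for 31828 genes (98.5%) and all 38 members, taking the smallest length that fits. The solving was checked on simulated data. Those data were made with the same reads plus 1 form, so they cannot check that the deposited values were made that way. Log2 ratios were taken after adding 0.5 RPKM, which understates differences of low genes. The floor was 3 RPKM and calls were made at 2-fold. Ratios of reads have exact (Clopper-Pearson) 95% intervals, and associations a normal approximation on the log scale. The intervals cover counting error only.

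Named were members at least 2-fold different, the 3 highest and 3 lowest in each morphant comparison, the 3 most abundant of each position, HOXC12, HOXC13, and extremes of the other lists. Not every gene this rule selects in those other lists is given. HOXA11, hoxa13b, hoxb6b, HOXB7, hoxb10a, HOXB13, HOXC5, HOXC8, HOXC11, HOXD12, hoxd13a, pbx4 and cdx4 were named after their values were seen. The members and lists were chosen with earlier results of these data known. Alternatives were other scalings, pseudocounts, floors and folds, summed RPKM, and leaving out HOXC12 and HOXC13. Computation used SciPy 1.17.1, pandas 2.3.3 and NumPy 2.4.6 under Python 3.11.15, and figures Matplotlib 3.10.9.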

Additional observations from a re-analysis of the deposited data

Results flagged for a closer look

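In 5 hox genes the polysomal and total differences between morphants and wild type ran in opposite directions, with both counting intervals leaving out 0. The share of all genes that meet this rule is not given here. Polysomal counting intervals are too narrow, and those of HOXB9 and hoxb10a began close to 0, at 0.01 and 0.08. Association, the polysomal minus the total log2 ratio, was 2.503 for HOXC12, 2.03 for HOXC13, 0.66 for HOXB9, 0.53 for hoxb10a and -0.45 for hoxb1b. The difference between fractions was not tested, since each group is 1 library. For hoxb1b, the polysomal ratio was -0.22 as scaled by the authors and 0.01 when the 50 most abundant genes were left out of the totals, so its opposite directions rest on the scaling.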

How the results depend on the processing

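Of the group medians and counts recomputed under alternatives, 154 kept their direction and size, 18 moved and 1 reversed, and of the values of single named genes 155 kept theirs and 13 moved. With the 50 most abundant genes left out of the totals, the polysomal median was 0.25 over all and 0.32 over posterior hox genes, and the polysomal over total median was -0.15 in morphants and -0.43 in wild type. Under that scaling the all-gene median shifted by 0.22 in polysomal mRNA and 0.19 in association. Upper-quartile scaling gave polysomal over total medians of 0.54 in morphants and 0.41 in wild type. A floor of 12 RPKM left few members: the polysomal median was -0.25 over 10 and -0.14 over 4 posterior genes, the association median reversed to -0.38 over 4 members and was -0.16 over 2 anterior ones, and polysomal over total was -0.22 in morphants and -0.79 in wild type over 17. At that floor 0 members were 2-fold higher in polysomal mRNA and 0 in association, since HOXC12 and HOXC13 do not reach it. A fold of 4 called 0 members higher in polysomal mRNA. A fold of 1.5 called 2 lower in polysomal mRNA, 2 lower in total mRNA, and 5 higher and 1 lower in association. The shares of all genes at folds of 1.5 and 4 are not given here, so these counts have nothing to be set against. The floor on mean RPKM was chosen after seeing the data. No paired analysis was possible because each group has 1 library. Depth limits HOXC12 most, with 7 reads in wild-type polysomal mRNA.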
